A study of Rattus norvegicus with 6 samples.

Results

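The genes described here encode enzymes, or partner subunits of enzymes, that add methyl groups to transfer RNA, ribosomal RNA, messenger RNA or to arginine residues of proteins. They were taken by gene name from a table of 32623 rat genes, and 9 of the 10 names listed were found, namely Mettl1, Wdr4, Nop2, Nsun2, Prmt1, Prmt3, Prmt5, Trmt6 and Mettl3. The tenth, Trmt61a, had no row under its own symbol. A row with the placeholder name LOC103692719 was described in the table as the TRMT61A catalytic subunit, and its values are given beside the members without being counted among them. The genes were selected on the sham and ischemia values of these same samples, in which Mettl1, Nop2 and Prmt3 separated the groups, so the differences between groups below are a description and carry no test. RNA was sequenced from 6 samples of myocardium of male rats of wild-type genotype, 3 sham-operated and 3 with ischemia of 30 min. In the ischemia group a ligature was tied around the left anterior descending (LAD) coronary artery through a left thoracotomy, under anesthesia and ventilation. No ligation is described for the sham group. Strain, age and the piece of the heart taken are not given in the sources used here, and the labels number the samples within a group without tying them to animals.

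Methyl groups on RNA are placed after transcription by enzymes that draw on S-adenosylmethionine, and in transfer and ribosomal RNA they shape folding, stability and decoding. Many of these enzymes act in the nucleus or nucleolus, where ribosomes are assembled, and several work only as a pair of a catalytic and a partner subunit. Protein arginine methyltransferases use the same methyl donor on RNA-binding proteins, ribosomal proteins and histones. Ischemia, the loss of blood supply to a tissue, deprives heart muscle of oxygen and nutrients, and making ribosomes is one of the costly processes of a cell.

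Start-region sequences were available from the RefSeq promoter table of the GRCr8 build for 7 of the 10 names, each as 300 bases from 250 bases before to 50 bases after the annotated start. The letters CACGTG, the E-box bound by MYC and related basic helix-loop-helix factors, read the same on both strands and were found once each in 4 of the 7 windows. These 4 windows are shown because the genes of both tRNA 1-methyladenosine subunits, of the METTL1 partner and of NOP2 hold the E-box just after the annotated start. They are printed 5′ to 3′ along the gene's own strand, with CACGTG in capitals. Wdr4 lay at chr20:9604669-9604968 (minus strand), Nop2 at chr4:159618716-159619015 (plus), Trmt6 at chr3:140539460-140539759 (minus) and Trmt61a at chr6:136558167-136558466 (plus).
Wdr4: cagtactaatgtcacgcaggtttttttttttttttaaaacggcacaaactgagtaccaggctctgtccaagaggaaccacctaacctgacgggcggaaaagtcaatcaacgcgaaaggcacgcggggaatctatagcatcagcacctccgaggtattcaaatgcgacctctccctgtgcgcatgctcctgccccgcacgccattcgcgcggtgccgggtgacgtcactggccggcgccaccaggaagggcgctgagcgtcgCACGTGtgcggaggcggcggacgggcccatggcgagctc
Nop2: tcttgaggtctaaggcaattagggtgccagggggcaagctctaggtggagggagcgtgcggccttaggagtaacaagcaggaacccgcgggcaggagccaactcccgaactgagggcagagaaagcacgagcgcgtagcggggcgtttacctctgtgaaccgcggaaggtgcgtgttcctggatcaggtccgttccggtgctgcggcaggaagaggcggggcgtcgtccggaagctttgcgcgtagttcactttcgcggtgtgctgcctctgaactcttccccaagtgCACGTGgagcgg
Trmt6: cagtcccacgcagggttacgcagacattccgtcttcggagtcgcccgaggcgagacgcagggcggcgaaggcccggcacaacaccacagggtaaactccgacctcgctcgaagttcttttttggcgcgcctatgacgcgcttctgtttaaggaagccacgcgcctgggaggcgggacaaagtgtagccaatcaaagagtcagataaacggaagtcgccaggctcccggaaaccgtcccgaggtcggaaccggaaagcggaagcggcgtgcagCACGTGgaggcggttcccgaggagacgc
Trmt61a: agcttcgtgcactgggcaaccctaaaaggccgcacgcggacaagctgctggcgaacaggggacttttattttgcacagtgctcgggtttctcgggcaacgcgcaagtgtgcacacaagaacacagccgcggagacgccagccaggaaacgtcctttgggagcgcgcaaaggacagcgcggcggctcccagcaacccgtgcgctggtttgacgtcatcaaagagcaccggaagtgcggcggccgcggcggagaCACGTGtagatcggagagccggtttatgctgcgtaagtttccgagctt

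The E-box began at base 262 in Wdr4, 289 in Nop2, 273 in Trmt6 and 253 in Trmt61a, where base 251 is the annotated start. The windows of Nsun2, Prmt1 and Prmt5 held none. The near match CACGCG, searched on both strands, was found in Wdr4, Trmt6 and Trmt61a, 3 of the 7. Of all 33469 windows in the table, 6.42% held CACGTG and 8.50% held CACGCG. Among 9665 tested genes with a window, 9.81% held CACGTG and 17.6% held CACGCG. The median log2 fold change, ischemia over sham, was 0.11 for those with CACGTG, against -0.03 for those without it, a difference that was not tested. A match is a run of letters, and binding by any factor was not measured here. The build of the deposited table is not given in the sources used here, and its gene positions, given below, are not on the coordinates of GRCr8.

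Between 68529126 and 79591989 reads were counted to genes in each library, and 15.4% to 21.4% of them came from the mitochondrial genome. The largest axis of variation between samples, with 57.5% of the variance, placed the sham samples at -78.1, -65.2 and -82.8 and the ischemia samples at 13.8, 133 and 79.0. The ischemia samples were thus the more scattered on this axis. On the second axis the sham samples were, at 36.6, -72.8 and 48.9, against -20.3, 34.0 and -26.5 in ischemia. In sham sample 1 the Y-linked genes Kdm5d and Eif2s3y together had 4 reads, against 1762 to 4310 in each other sample, although the labels call the rats male. The sham libraries also differed in atrial and ventricular markers. The atrial markers Myl7, Myl4, Nppa and Sln summed to 47952, 393.6 and 35818 CPM in sham and 9267, 1732 and 1219 in ischemia, and Myl2, the ventricular light chain, was at 181, 1718 and 169 CPM in sham and 665, 276 and 653 in ischemia. Sham samples 1 and 3 were thus high in atrial markers and low in Myl2, and sham sample 2 was the reverse. Levels below are FPKM, fragments scaled by gene length and by reads in the library, where genes are compared with each other. CPM, counts scaled to a common library size with the trimmed mean of M-values (TMM), is used where 1 gene is compared between samples. Log2 fold changes are edgeR estimates with their standard error (SE), ischemia over sham.

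The pair that makes 7-methylguanosine in tRNA was higher in all ischemia samples, and its catalytic subunit more so than its partner. Mettl1, the catalytic subunit (ENSRNOG00000047895, chromosome 7, 70328391 to 70333166, plus strand), had 409, 351 and 432 counts in sham samples 1 to 3 and 1712, 1927 and 1702 in ischemia samples 1 to 3. The groups did not overlap, and in CPM its lowest ischemia level was 3.61 times the highest sham sample. FPKM was 2.50 ± 0.396 in sham and 11.3 ± 1.20 in ischemia (SD, n = 3 each), a log2 fold change of 2.09 ± 0.19 (SE).

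Wdr4, the WD-repeat partner that holds METTL1 on its tRNA (ENSRNOG00000001181, chromosome 20, 10239154 to 10257044, minus strand), had 453, 456 and 532 counts in sham and 1234, 1533 and 1505 in ischemia. All ischemia samples lay above all sham samples, with ischemia sample 1 the lowest of the 3. FPKM went from 1.74 ± 0.252 to 5.23 ± 0.942, and the log2 fold change was 1.50 ± 0.23. The ratio of Mettl1 to Wdr4 FPKM within a sample was 1.57, 1.33 and 1.41 in sham and 2.40, 2.18 and 1.96 in ischemia. Both transcripts of the pair thus did not keep 1 ratio, and the ratios of the groups did not overlap.

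The pair that makes 1-methyladenosine at tRNA position A58 consists of the TRMT61A catalytic subunit and TRMT6, which binds the tRNA. Trmt6 (ENSRNOG00000021270, chromosome 3, 125458692 to 125470413, minus strand) had 533, 366 and 405 counts in sham and 1508, 2505 and 1598 in ischemia. Every ischemia sample was above every sham sample, and ischemia sample 2 stood well above the other two. FPKM was 1.95 ± 0.427 in sham and 8.48 ± 2.68 in ischemia, and the log2 fold change of 2.03 ± 0.26 had the widest SE of the 9 members. Trmt6 also had the largest spread of any member within ischemia, with a coefficient of variation of 25.7% in CPM.

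The row described as TRMT61A (ENSRNOG00000011398, chromosome 6, 136150785 to 136250752, plus strand) had 300, 453 and 459 counts in sham and 1429, 2222 and 2053 in ischemia. Its groups did not overlap either, and sham sample 1 and ischemia sample 1 were the lowest of their groups. FPKM was 1.36 ± 0.317 in sham and 6.53 ± 1.78 in ischemia, a log2 fold change of 2.16 ± 0.33. This row spans the gene Coa8 on the same strand and Bag5l1 on the other, which had up to 1709 counts in a sample, so its value is uncertain where reads could fall to either. The ratio of Trmt6 to this row was 2.37, 1.07 and 1.18 in sham and 1.40, 1.50 and 1.03 in ischemia, and these ranges overlapped.

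NSUN2 and NOP2 both place 5-methylcytosine, the first mainly in tRNA and the second in the large-subunit ribosomal RNA, where it is also needed for assembly of that subunit. Nop2 (ENSRNOG00000018453, chromosome 4, 157647082 to 157658390, plus strand) had 1195, 1258 and 1394 counts in sham and 5112, 6818 and 5641 in ischemia. Sham samples lay close together, and the lowest ischemia sample was 3.29 times the highest sham sample in CPM. FPKM was 7.25 ± 0.900 in sham and 33.4 ± 6.27 in ischemia, with a log2 fold change of 2.11 ± 0.20, the highest of the 9 members though within the SE of Mettl1.

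Nsun2 (ENSRNOG00000017254, chromosome 1, 36295650 to 36319966, minus strand) had 3286, 3304 and 3100 counts in sham and 7635, 10545 and 7964 in ischemia. It separated the groups by less than Nop2 did. FPKM was 8.67 ± 0.257 in sham and 23.7 ± 4.96 in ischemia, and the log2 fold change was 1.35 ± 0.19. In sham, Nop2 stood below Nsun2 in each sample, at ratios of 0.763, 0.799 and 0.944. In ischemia it stood above, at 1.40, 1.36 and 1.49, so the order of the 2 genes was opposite in the groups. Against Fbl, the rRNA 2′-O-methyltransferase fibrillarin, the Nop2 ratio was 0.285 to 0.357 in sham and 0.355 to 0.396 in ischemia, and these ranges overlapped.

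Of the 3 protein arginine methyltransferases among the members, Prmt3 differed most between groups and Prmt5 least. Prmt3, a cytosolic enzyme whose main known substrate is the small-subunit ribosomal protein RPS2, lies on chromosome 1 (ENSRNOG00000014829, 105113595 to 105200470, plus strand). It had 817, 656 and 769 counts in sham and 3049, 2717 and 2696 in ischemia. In CPM both groups were tight and far apart, with the lowest ischemia sample at 3.16 times the highest sham sample. FPKM was 3.57 ± 0.542 in sham and 13.5 ± 0.317 in ischemia, a log2 fold change of 1.84 ± 0.17.

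Prmt1, which makes most of the asymmetric dimethylarginine of a cell (ENSRNOG00000026109, chromosome 1, 100971273 to 100980340, minus strand), had 5025, 4970 and 4740 counts in sham and 11406, 10749 and 9562 in ischemia. It was the most abundant member in both groups, at 60.5 ± 2.35 FPKM in sham and 130.7 ± 4.08 in ischemia, with no overlap and a log2 fold change of 1.02 ± 0.16. The ratio of Prmt3 to Prmt1 was 0.0629, 0.0509 and 0.0627 in sham and 0.103, 0.0978 and 0.109 in ischemia. Prmt3 therefore was a small fraction of Prmt1 by transcript level in every sample, and a larger one in ischemia, without overlap.

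Prmt5, which makes symmetric dimethylarginine on spliceosomal Sm proteins and histones in a complex with WDR77 (ENSRNOG00000012046, chromosome 15, 33156492 to 33165895, minus strand), had 2544, 2789 and 2494 counts in sham and 5560, 4714 and 4783 in ischemia. FPKM was 13.3 ± 0.230 in sham and 25.8 ± 1.03 in ischemia, with no overlap. Its log2 fold change of 0.86 ± 0.18 was the second lowest of the 9 members. The ratio of Prmt5 to Wdr77 was 1.34, 1.49 and 1.53 in sham and 1.54, 1.33 and 1.73 in ischemia, which overlapped. The Wdr77 row itself spans 6 other rows with up to 29799 counts in a sample, so that ratio is uncertain.

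Mettl3, the catalytic subunit of the complex that makes N6-methyladenosine in messenger RNA (ENSRNOG00000013111, chromosome 15, 28710300 to 28721127, minus strand), differed least between groups. It had 2389, 2373 and 2309 counts in sham and 2990, 2829 and 2766 in ischemia. FPKM was 16.4, 15.4 and 16.7 in sham and 19.0, 19.8 and 20.4 in ischemia, which did not overlap. After TMM scaling the groups did overlap, at 31.3, 36.3 and 31.4 CPM in sham and 37.0, 35.3 and 41.5 in ischemia, since ischemia sample 2 fell below sham sample 2. The log2 fold change was 0.20 ± 0.16. The ratio of Mettl3 to Mettl14, its partner in the complex, ranged from 1.76 to 3.16 in sham and from 1.80 to 3.14 in ischemia.

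**Figure D1:**
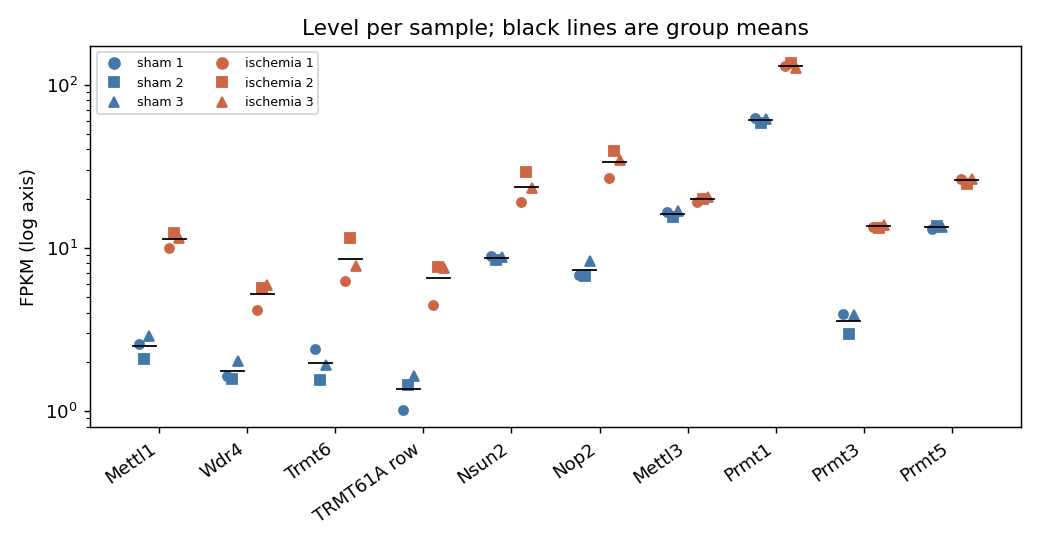
FPKM (log axis) of the 9 members and the row described as TRMT61A in the 3 sham and 3 ischemia samples, 1 marker per sample. Prmt1 is the most abundant in both groups, and Mettl3, at 15.4 to 16.7 in sham and 19.0 to 20.4 in ischemia, has its groups closest together.

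Across the members, 8 of 9 were past the adjusted threshold of 0.05 in the edgeR quasi-likelihood test and higher in ischemia, none was lower, and Mettl3 was not called. Of all 13964 tested genes, 5.18% were called higher. In CPM, 8 members had groups that did not overlap with ischemia higher, where 22.0% of all tested genes did. In FPKM, which was not TMM-scaled, all 9 did so, against 23.6% of tested genes. The median log2 fold change of the 9 was 1.50, and that of all tested genes was near 0. Log2 fold changes above 1 were held by 7 members and by 14.1% of tested genes, and above 2 by 3 members (Mettl1, Nop2 and Trmt6) and by 4.98%. Nothing can be read from these counts about the members, since the same contrast chose them.

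All 9 members had a log2 fold change above 0, as 49.9% of tested genes did, and kept it in each of the 15 alternatives that tested them. The calls themselves were lost when some single libraries were left out, while the members' median log2 fold change stayed between 1.36 and 1.56 in those fits. Without sham sample 1, 2 or 3, or without ischemia sample 3, no gene in the table passed the adjusted threshold, although between 3020 and 3809 genes, 8 members included, had an unadjusted p under 0.05 in each of those fits. With all 6 samples 32.4% of tested genes had one. Without sham sample 1, the sample with few Y-linked reads, the members' log2 fold changes ranged from 0.16 to 2.15 with a median of 1.42. Without sham sample 2, the one low in atrial markers, they ranged from 0.27 to 2.16, and without sham sample 3 from 0.16 to 2.15. Prmt5 alone was no longer called without ischemia sample 2, which left 7 members called, and it also lost its call under median-ratio scaling and without an expression filter.

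**Figure D2:**
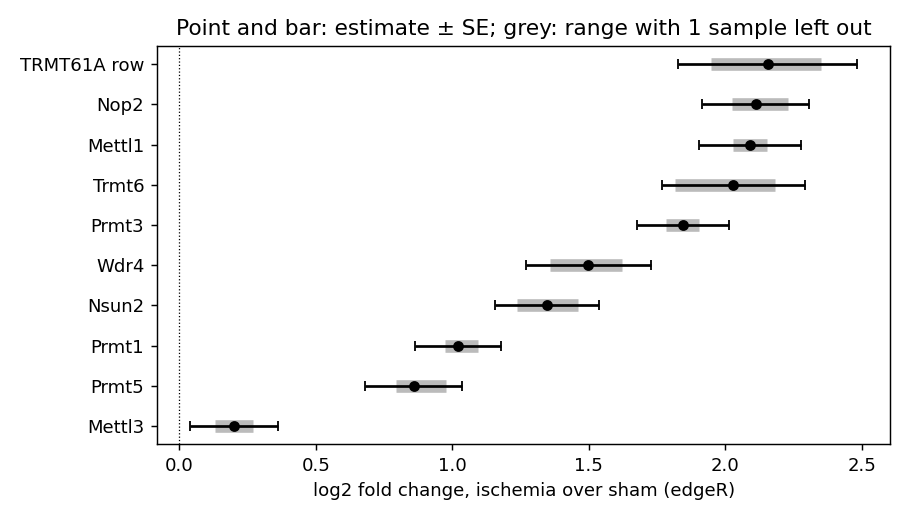
Log2 fold change, ischemia over sham, of each member and the row described as TRMT61A, with bars for ± SE and a grey band for the range of estimates when 1 sample is left out. Estimates run from 0.20 for Mettl3 to 2.11 for Nop2 among the members, and every grey band lies above 0.

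Within each group the members varied by different amounts. In sham, the coefficient of variation in CPM ran from 3.31% for Prmt3 to 14.3% for Prmt5, across sham libraries that differed in atrial markers as given above, and in ischemia from 3.46% for Prmt1 to 25.7% for Trmt6. The sham ranking depended on the scaling. In FPKM, sham Prmt5 was the tighter of these 2 genes, at 13.3 ± 0.230 (SD), and sham Prmt3 was at 3.57 ± 0.542. The ischemia samples did not stand in the same order for every member. In CPM, ischemia sample 2 was the highest for Nop2, Nsun2 and Trmt6, while ischemia sample 3 was the highest for the other 6. Ischemia sample 1 was the lowest for Mettl1, Wdr4, Nop2, Nsun2 and Trmt6, whereas ischemia sample 2 was the lowest for Prmt1, Prmt3, Prmt5 and Mettl3. Part of this order depended on the scaling. In FPKM, Prmt1 was highest in ischemia sample 2 (130.3, 135.0 and 126.8), Mettl1 was too, and Mettl3 was lowest in ischemia sample 1, while Wdr4, Nop2, Nsun2 and Trmt6 were lowest in ischemia sample 1 in both units.

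**Figure D3:**
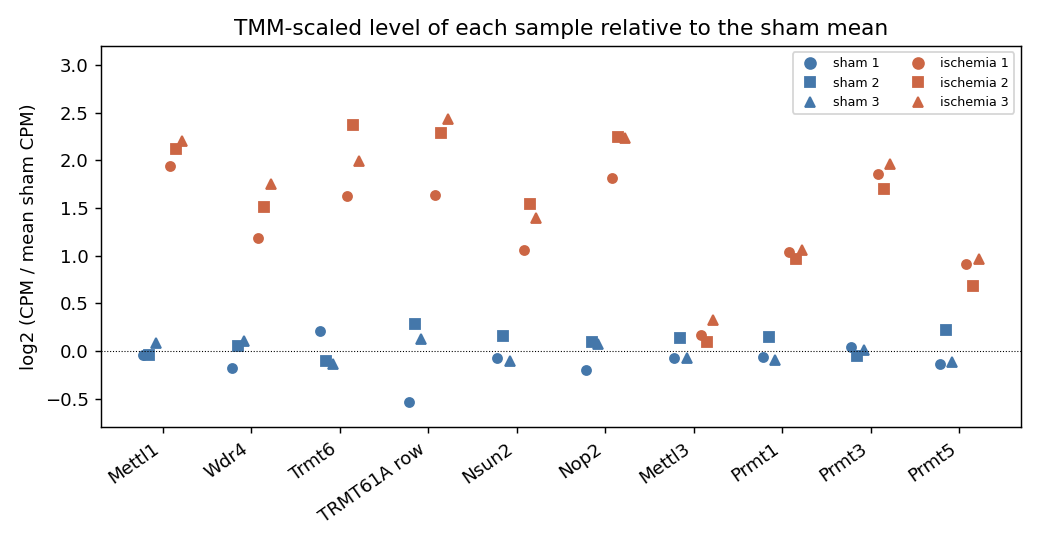
Log2 of CPM in each sample over the mean sham CPM, for the 9 members and the row described as TRMT61A, with sham in blue, ischemia in orange and the sample number as marker shape. Ischemia sample 2 (square) is the highest for Trmt6 and the lowest for Prmt1, Prmt3, Prmt5 and Mettl3 within its group on this scale.

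Ordered by mean FPKM in sham, Prmt1 was followed by Mettl3, Prmt5, Nsun2, Nop2, Prmt3, Mettl1, Trmt6 and Wdr4. The ranges of the 3 sham samples overlapped between the neighbours Mettl1 and Trmt6 and between Trmt6 and Wdr4, so these are not ordered beyond their spread. In ischemia the order was Prmt1, Nop2, Prmt5, Nsun2, Mettl3, Prmt3, Mettl1, Trmt6 and Wdr4. Nop2 moved from the fifth place to the second, and its lowest ischemia sample, at 26.7, was just above the highest of Prmt5, at 26.4. The neighbours Prmt5 and Nsun2, Nsun2 and Mettl3, and Mettl1 and Trmt6 overlapped there.

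**Figure D4:**
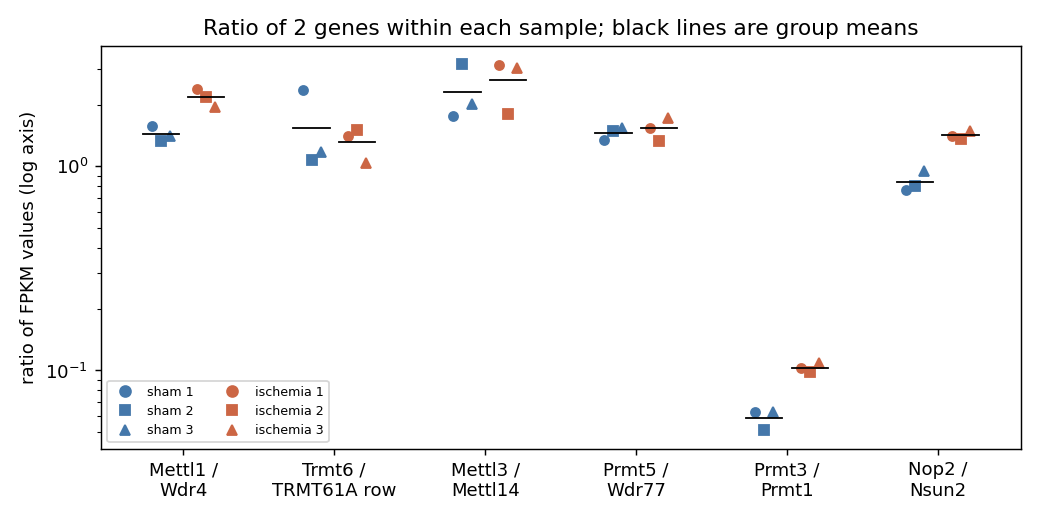
Ratio of the FPKM values of 2 genes within each sample (log axis), for 6 pairs, with a black line at each group's mean. The groups do not overlap for Mettl1 over Wdr4, Prmt3 over Prmt1 and Nop2 over Nsun2, and overlap for the other 3 pairs. Mettl1, Prmt3 and Nop2 were chosen because they separate the groups, so the separation of their ratios is a description only. The ratio of Nop2 to Fbl, which is not drawn, overlapped between the groups.

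To place the members among related genes, 107 further genes of RNA and protein methylation were listed by function, of which 101 were found and 90 were tested. Of these 90, 7 were called by edgeR as higher in ischemia, 1 was called lower and 82 were not called, with a median log2 fold change of 0.28, where 5.18% of all tested genes were called higher and 1.53% lower. DESeq2 called 24 of them higher and 4 lower, where it called 14.8% and 12.5% of all tested genes. In CPM, 30 had ischemia above sham without overlap and 9 had it below, against 22.0% and 19.1% of all tested genes. As for the members, no companion gene was called without sham sample 1, 2 or 3 or without ischemia sample 3.

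The 4 genes of the ribosomal RNA list that edgeR called rose in ischemia. Fbl, the box C/D 2′-O-methyltransferase fibrillarin, rose by 1.90 ± 0.19 (edgeR adjusted p = 0.0246), with 2134, 1794 and 2136 counts in sham and 6808, 9784 and 7253 in ischemia. Ftsj3, which methylates 2′-hydroxyls of pre-rRNA, rose by 1.89 ± 0.23 (edgeR adjusted p = 0.0272), from 1605 to 2017 counts in sham to 5592 to 9221 in ischemia. Bud23, the 18S rRNA 7-methylguanosine enzyme, rose by 1.71 ± 0.29 (edgeR adjusted p = 0.0351), from 575 to 977 counts to 2625 to 2826. Emg1, a pseudouridine N1-methyltransferase of 18S rRNA, rose by 0.98 ± 0.17 (edgeR adjusted p = 0.0351), from 1878 to 2172 counts to 3809 to 4622. The rRNA list had 16 genes tested, a median of 0.79 and a range from -1.44 to 1.90, and edgeR called none of it lower. DESeq2 called 9 of the list higher, these 4 with Nsun5, Dimt1, Rrp8, Tfb1m and Mrm1, and 1 lower, Mettl15, a mitochondrial enzyme named here for that call, which had a log2 fold change of -1.44 ± 0.46 (edgeR adjusted p = 0.0973). Without ischemia sample 2, Bud23 missed the threshold (edgeR adjusted p = 0.0507). Fbl, Bud23 and Emg1 each overlap another annotated gene.

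The transfer RNA list, the one closest to Mettl1, Wdr4, Nsun2 and Trmt6, had no called gene among the 20 tested. Its median log2 fold change was 0.30, from -0.60 to 1.13, and 7 of its genes were higher without overlap, where 22.0% of all tested genes were, and none lower. At an unadjusted p under 0.05, 5 of its genes passed, where 32.4% of all tested genes did. DESeq2 called 4, all higher, namely Trmt10a, Trmt10c, Mettl2 and Thumpd3, where it called 14.8% of all tested genes higher. Trmt112, the activating partner of several methyltransferases including BUD23, had a log2 fold change of 0.34 ± 0.17 (edgeR adjusted p = 0.214). Trmt10c, a subunit of mitochondrial RNase P that methylates mitochondrial tRNA, had 0.82 ± 0.28 (edgeR adjusted p = 0.109).

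The messenger RNA list, which holds the partners of METTL3 and the cap enzymes, also had no call among 14 tested genes. At an unadjusted p under 0.05, 3 of them passed, where 32.4% of all tested genes did. DESeq2 called 3 higher, namely Mettl16, Rbm15b and Ramac, where it called 14.8% of all tested genes higher. Mettl14, the RNA-binding partner of METTL3, was at 0.0062 ± 0.27 (edgeR adjusted p = 0.989), and its sign changed with the scaling, to -0.02 under median-ratio factors. Wtap, the regulatory subunit that holds the complex in nuclear speckles, was at 0.34 ± 0.25 (edgeR adjusted p = 0.362). Cmtr1, which methylates the first transcribed nucleotide of the cap, was at -0.48 ± 0.18 (edgeR adjusted p = 0.129).

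Among 9 tested arginine methyltransferases and partners, edgeR called 1, Wdr77, with a log2 fold change of 0.78 ± 0.17 (adjusted p = 0.0482). DESeq2 called 2, Wdr77 and Prmt7, a monomethylating enzyme named here for that call, whose log2 fold change was 0.95 ± 0.22 (edgeR adjusted p = 0.0536). Wdr77 had 1846, 1820 and 1580 counts in sham and 3500, 3437 and 2686 in ischemia, and the overlapping rows named above bear on it. The edgeR call of Wdr77 was lost under median-ratio scaling (adjusted p = 0.0516), without an expression filter (0.0660) and without ischemia sample 2 (0.0752). Carm1, a coactivator-associated enzyme, was at 0.29 ± 0.19 (edgeR adjusted p = 0.316). Clns1a, the chaperone that brings Sm proteins to PRMT5, was at -0.15 ± 0.15 (edgeR adjusted p = 0.513). The list's median was 0.10.

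The list of methyltransferases of translation factors and ribosomal proteins had 12 tested genes. Lcmt1, Icmt and Camkmt are among them, although they act on other proteins. Of the 12, edgeR called Eef1akmt4, a lysine methyltransferase of elongation factor 1A. It had 104, 273 and 131 counts in sham and 984, 846 and 956 in ischemia, and rose by 2.34 ± 0.48 on the log2 scale (edgeR adjusted p = 0.0445). Its sham samples were uneven, with sample 2 the highest, but all lay below ischemia. The call was lost without an expression filter (edgeR adjusted p = 0.0533) and without ischemia sample 2 (0.0658), and DESeq2 called 2 genes of the list higher, Eef1akmt4 and Dph5. Ntmt1, the N-terminal methyltransferase with the highest FPKM of the list, was at 0.09 ± 0.27 (edgeR adjusted p = 0.841).

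The genes that supply and clear the methyl donor held 1 edgeR call in each direction among 10 tested, with a median of -0.34. Ahcy, which hydrolyzes S-adenosylhomocysteine, the product and inhibitor of these enzymes, rose by 0.92 ± 0.15 (edgeR adjusted p = 0.0339), with 3051, 2225 and 2742 counts in sham and 5984, 5599 and 4456 in ischemia. The Ahcy call was lost under total-count scaling (edgeR adjusted p = 0.0512). Adk, adenosine kinase, which removes the adenosine that this reaction yields, was at -1.27 ± 0.28 (edgeR adjusted p = 0.0496), with 6909, 5933 and 5336 counts in sham and 3827, 1909 and 2289 in ischemia. Adk was the 1 companion gene that edgeR called lower, and it lost that call under total-count and upper-quartile scaling, without an expression filter and without ischemia sample 2. DESeq2 called 2 genes of the list higher, Ahcy and Mat2a, and 3 lower, of which Adk is named here. In CPM, 2 genes of the list were higher without overlap and 4 were lower, where 22.0% and 19.1% of all tested genes were. Mat2a, which makes S-adenosylmethionine outside the liver, was at 0.62 ± 0.20 (edgeR adjusted p = 0.101).

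None of the 9 tested RNA demethylases and N6-methyladenosine readers was called by edgeR. An unadjusted p under 0.05 was held by 2 of them and by 32.4% of all tested genes. DESeq2 called 2 higher, Alkbh1 and Igf2bp2, where it called 14.8% of all tested genes higher. The list's median log2 fold change was 0.37, from -0.55 to 1.84, with 6 of the 9 above 0. Igf2bp2, a reader named here as the top of that range, had 122, 109 and 177 counts in sham and 368, 871 and 326 in ischemia, without overlap (edgeR adjusted p = 0.0573). Fto was at -0.38 ± 0.22 (edgeR adjusted p = 0.260) and Alkbh5 at -0.01 ± 0.17 (edgeR adjusted p = 0.979), both of them N6-methyladenosine demethylases. The sign of Alkbh5 changed with the scaling, to 0.09 with total counts. Alkbh3, which removes 1-methyladenosine, was at -0.55 ± 0.34 (edgeR adjusted p = 0.297).

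**Figure D5:**
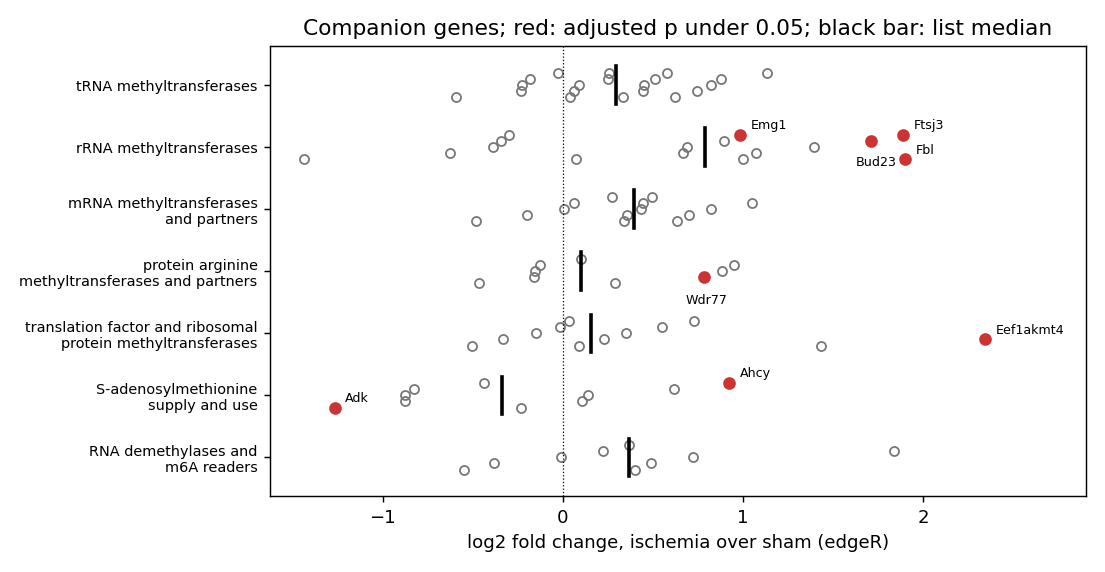
Log2 fold change, ischemia over sham, of the 90 tested companion genes in 7 functional lists, with genes called by edgeR filled in red and named and a black bar at each list's median. The rRNA list has the highest median, 0.79, and 4 of the 7 genes called higher, while Adk is the 1 gene called lower by that test.

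The letters of the E-box were also searched in the windows of the companion genes. Of 78 tested companion genes with a RefSeq window, 11 (14.1%) held CACGTG, against 9.81% of all tested genes with a window. These were Trmt1, Ftsj1, Fbl, Rrp8, Mrm1, Mettl17, Rbm15b, Wdr77, Clns1a, Eef1akmt4 and Ythdf1. Their log2 fold changes ran from -0.30 to 2.34 with a median of 0.78, and the median of the companion genes without the letters was 0.25. This difference was not tested. Fbl, Wdr77 and Eef1akmt4 were among those called higher, while Clns1a and Mettl17 had log2 fold changes below 0.

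The genes whose profile over the 6 samples lay nearest to Mettl1, Nop2 and Prmt3 were found by the root mean square difference of log2 CPM, each gene centred on its own mean. For Mettl1 these were Nop2 (0.111), Qtrt1 (0.124), the catalytic subunit of the tRNA queuosine enzyme, and Etv4 (0.129), an ETS transcription factor. For Nop2 they were Qtrt1 (0.103), Mettl1 (0.111) and Gar1 (0.114), a protein of H/ACA pseudouridylation particles. For Prmt3 they were Snrpa (0.102), a U1 spliceosomal protein, Ifitm1 (0.127), an interferon-induced membrane protein, and Wdr46 (0.130), a nucleolar protein. Mettl1 and Nop2 were thus among each other's 3 nearest genes of all those tested. The likeness rests on 6 samples and mostly on the step between the groups, which chose these genes.

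Marker transcripts of other cell types differed between groups together with the members. Of 17 neutrophil and monocyte markers 16 were found and 14 tested, and 12 were called higher, with a summed level of 32.0 to 54.4 CPM in sham and 1264, 3051 and 810.7 in ischemia samples 1 to 3. Retnlg was at 0 counts in all sham samples, and Fpr1 was at 0 in all samples but ischemia sample 2, where it had 174. The defining pair S100a8 and S100a9 was present in sham, at 47 to 196 and 191 to 473 counts. Ischemia sample 2, highest in this sum, was also the highest for Nop2, Nsun2 and Trmt6 in counts, CPM and FPKM, and the lowest for Prmt5 in all 3.

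Resident macrophage markers summed to 116.9 to 178.8 CPM in sham and 202.7 to 442.0 in ischemia, with 1 of 5, Cd163, called higher. Ventricular and general cardiomyocyte markers, all 8 of which were found, summed to 58574 to 92365 CPM in sham and 13447 to 33131 in ischemia, none of them called. This sum was largely Myh6, Actc1 and Atp2a2, and the ventricular marker Myl2 alone, whose groups overlapped, is given above. Fibroblast markers (4 of 5 found, 0 called) summed to 1407 to 3904 CPM in sham and 490.3 to 1225 in ischemia. Endothelial markers (4 of 5 found) and those of dividing cells (5 of 5) had sums that overlapped between the groups, and lymphocyte markers (5 of 5) summed to 7.66 to 12.8 CPM in sham and 13.2 to 16.4 in ischemia, with none called in these 3 lists. The part of these shifts in the members' levels was not tested. In whole tissue, a changed number of cells of a type and a changed amount of RNA per cell cannot be told apart.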

How the data were processed

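Raw counts and FPKM values were deposited by the authors in 1 table for 3 sham and 3 ischemia samples. In the authors' table the counts are unnormalized reads per Ensembl gene, and the FPKM values had been computed by the authors from gene length and library size. In 99.9% of 9998 well-covered genes, FPKM differed from counts by 1 factor per sample within 0.01 log2 units. The submitters' processing notes name STAR and HTSeq; versions, build and strand setting are not given in the sources used here. Libraries came from a stranded total RNA kit.

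The 13964 genes whose FPKM averaged 0.5 or more were tested on counts with the quasi-likelihood test of edgeR 4.0.16 in R 4.3.3, with TMM scaling, no covariates, two-sided p-values and Benjamini-Hochberg adjustment over all of them at 0.05. SE was derived from the F statistic. P-values measure the spread between these samples, which may be technical. Counting precision was high, since 3 reads equal 0.0377 to 0.0438 CPM. Alternatives were DESeq2 1.42.0, limma 3.58.1 on log2(FPKM + 0.1) and log2(FPKM + 1), 3 other scalings, 2 other filters, a replicate block, and each sample left out.

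Members and lists were chosen with earlier results of these data known. Named genes were all members, called companion genes, the most abundant gene of each list, preset partners, and the 3 genes nearest in profile to Mettl1, Nop2 and Prmt3, passing over placeholder names. Companion genes that DESeq2 alone called, and those named for an E-box, lie outside this rule and were chosen after their values were seen. Motifs were searched in RefSeq windows of GRCr8. For 1 gene of the lists, the result is not reported here.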

Additional observations from a re-analysis of the deposited data

How the results depend on the processing

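Depth did not limit the members, each with at least 351 counts in every sample except the row described as TRMT61A, which had 300 in 1. The replicate numbers are shared between the groups, and the labels do not say whether they pair the samples. Deviations of same-numbered samples from their group means correlated at -0.05, -0.08 and -0.19. With 3 samples per group, these values cannot settle whether the samples are paired. With a replicate block, 0 genes were called higher and 0 lower, 0 members and 0 companion genes among them, while 3349 genes, 8 members and 22 companion genes had an unadjusted p under 0.05. With 1 sample left out, called genes ranged from 0 to 1490 higher and 0 to 1115 lower, called members from 0 to 8, and companion genes from 0 to 17 higher and 0 to 4 lower. The highest counts came without ischemia sample 1, and those of 0 without sham sample 1, 2 or 3 or without ischemia sample 3.

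DESeq2 called 2071 genes higher and 1742 lower against 723 and 214 with edgeR, so that 54.3% rather than 77.2% of calls were higher, and 24 companion genes higher and 4 lower against 7 and 1. Total-count scaling called 83 genes lower and no expression filter 93. Companion genes called lower numbered 0 under total-count scaling, upper-quartile scaling and no expression filter. Prmt5 lost its call under median-ratio scaling and without a filter, and Wdr4 was not tested at a mean FPKM of at least 5, which left 7 members called in each. Mettl14 changed sign with DESeq2 (-0.020), median-ratio (-0.020) and upper-quartile scaling (-0.035), a mean FPKM of at least 5 (-0.040) and the replicate block (-0.0071), and ranged from -0.24 to 0.15 with 1 sample left out. Alkbh5 changed sign in limma at both pseudocounts (0.071 and 0.066), with total counts (0.093) and without a filter (0.0082), and ranged from -0.15 to 0.052 with 1 sample left out. Ntmt1 ranged from -0.059 to 0.37. The causes were not tested. Among the other values for single genes, 319 kept direction and side of the threshold, 94 fell short of it and 3 newly passed it.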
